A study of Mus musculus with 4 samples.

Results

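The expressed long non-coding RNAs of MLg mouse lung fibroblasts are described here across 4 conditions that combined loss of function of the microRNA miR-9 with stimulation by TGFB1. A gene symbol was included when all its transcripts in the table were non-coding RefSeq transcripts, when one of them was 200 nt or longer, and when that transcript had a mean RPKM of 1 or more over the 4 libraries. RPKM is the read count scaled to transcript length and library size. Symbols of microRNAs, small nucleolar and Cajal body RNAs and their Snhg hosts, 7SK and 7SL RNAs, RNase P and MRP RNAs, Y RNAs, telomerase RNA, Gas5 and the ribosomal precursor Rn45s had been removed. This left 234 members of 12767 symbols, and each was represented by its transcript with the highest mean RPKM. Members were selected on their level averaged over all 4 libraries, so that a level of 1 or more is not a result. Where a member was under 1 RPKM in some libraries, its lower place there is partly set by this selection. The 3 members closest above that minimum had means of 1.02 (1700113A16Rik), 1.02 (6330549D23Rik) and 1.02 (Gm2027) RPKM. Just below it were Gm8096 at 0.992, Bvht at 0.982 and R74862 at 0.982 RPKM.

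Total RNA was sequenced once per condition. The conditions were TGFB1 with an antagomiR against miR-9-5p (TGFB1+miR-9-LOF), TGFB1 with the negative control antagomiR (TGFB1), the antagomiR against miR-9-5p alone (miR-9-LOF) and the negative control antagomiR alone (Ctr). All 4 cultures were wild-type MLg cells, an established mouse lung fibroblast line, and all were transfected, so no untransfected cells are among them. The antagomiR is catalogued against the human form of the microRNA, and TGFB1 was the recombinant human protein. Per the protocol deposited with the samples, antagomiR was used at 60 nM, TGFB1 at 5 ng/ml was added 20 h after transfection for 4 h, and cells were harvested at 24 h. The design entry of the series instead states 10 nM and harvest at 48 h without naming TGFB1. The methods of the study describe the treatment as the sample protocol does. With 1 library per condition no test between conditions was run, no p-value is given, and intervals cover counting error only.

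Long non-coding RNAs are transcripts of more than a minimal length that encode no known protein. Some stay in the nucleus, where they scaffold bodies such as speckles and paraspeckles or silence chromatin, and others bind proteins or microRNAs in the cytoplasm. Many are transcribed from the opposite strand of a protein-coding gene or from its promoter in the other direction. miR-9-5p is a microRNA best known from the nervous system, and microRNAs pair with RNAs mainly through bases 2 to 8, their seed. In human cancer cells miR-9 has been described to direct the breakdown of MALAT1 in the nucleus. In lung fibroblasts TGFB1 induces matrix and contractile genes through SMAD transcription factors.

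The libraries held 19017357 reads in transcripts for TGFB1+miR-9-LOF, 21805102 for TGFB1, 14718397 for miR-9-LOF and 27413486 for Ctr. A member had a median of 71.5, 91, 52.5 and 112.5 reads in these libraries in that order, so that ratios were least precise in miR-9-LOF. The ribosomal precursor Rn45s, together with Mir6236 and Lars2, took 27.4% of the reads in TGFB1+miR-9-LOF, 16.0% in TGFB1, 32.7% in miR-9-LOF and 18.8% in Ctr. Leaving these 3 symbols out of the totals moves the log2 difference of a member by 0.0023 to 0.30 (median 0.21) in miR-9-LOF over Ctr, and by 0.044 to 0.23 (median 0.16) in TGFB1+miR-9-LOF over TGFB1. Calls of named members that depend on this scaling are marked as such below. Values of coding partners and counts by position, partner, length, seed match and promoter use the deposited scale only. Fibroblast markers had a summed level of 1708 to 3027 RPKM in each library and epithelial markers 3.50 to 6.82 RPKM, almost all of it Krt7. Of the endothelial markers only Kdr was listed, at 0.115 RPKM or less, and of the leukocyte markers Cd14 and Cd68, at 4.62 to 6.98 RPKM together. Of the 10 fibroblast markers tested, 4 fell in miR-9-LOF over Ctr on the deposited scale, among them Col1a1 (-0.74) and Fn1 (-0.80), but 0 or 1 with the other scalings. Krt7 changed by -0.70 there, and by -0.50 to -0.53 with the other scalings. Their part in the changes of the members was not tested. In these bulk samples, fewer cells of a type and less RNA per cell cannot be told apart.

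The name of long non-coding RNA held for only part of the members. Of the 234 symbols, RefSeq annotates 139 as long non-coding or antisense RNA genes, 93 as transcribed pseudogenes and 2 as loci with a protein-coding gene. The lncRNA genes had a median level of 2.19 RPKM and the pseudogenes 3.45 RPKM. Among the 10 members with the highest level, 7 were pseudogenes. These were Ubb-ps, Rplp2-ps1, Rpl14-ps1, Gm15772, Atp6v0c-ps2, Gm4750 and Gm6548. The others were Malat1, Rps18-ps4 and Gm15270, and Rps18-ps4 also carries a pseudogene name. Gm15772 had the same 4 counts as the ribosomal protein gene Rpl26, so its reads cannot be assigned to it. A total of 13 lncRNA genes reached 10 RPKM, led by Malat1, Rps18-ps4, Gm15270 and B830017H08Rik, whereas 24 pseudogenes did.

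The microRNA that was blocked and the places where its seed could pair with these RNAs are shown first. The mature mouse miR-9-5p of 23 nt is made from 3 genes, among them Mir9-1 at chr3:88215613-88215635 (GRCm38, plus strand, RefSeq), with the seed in capitals.
miR-9-5p: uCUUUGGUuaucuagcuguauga
GENCODE transcripts were matched to the deposited transcripts of 115 lncRNA members, and 22 of them held the 7-base complement of the seed at least once. The transcripts with a site were longer, with a median of 3160 nt, than those without one, with a median of 1266 nt. Sites in RNAs that the later results turn on are printed in transcript direction with the match in capitals.
Malat1 (chr19:5796745-5796771, minus strand): ttgtatcgagACCAAAGtggtatcatg
Lncpint (across an exon junction, at base 611 of 656): acagtaagccACCAAAGaggtgtggac
Xist (chrX:103465602-103465628, minus strand): ggtgcatttcACCAAAGgaactcctgg
Tug1 (chr11:3641330-3641356, minus strand): agacttgattACCAAAGaaagtagagc
0610040F04Rik (chr6:108577897-108577923, minus strand): tgtgctgatgACCAAAGaaggctttgt
In Lncpint, Tug1 and 0610040F04Rik an A follows the match, which makes it an 8-base site. A match is a string of letters and was not tested as a binding site.

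Against the control, miR-9-LOF lowered more of the members than it raised on the deposited scale, and Lncpint rose most. The question of this comparison is which RNAs change when miR-9 is blocked in unstimulated cells. A member was counted as changed when log2(RPKM + 1) differed by 0.58 or more, which is a 1.49-fold change of that sum. By this limit 22 members fell (9.40%), against 6.69% of the 9467 genes tested, and 8 rose (3.42%), against 1.99% of the genes tested. The median log2 change was -0.10 over the members and -0.17 over all genes. Of the 139 lncRNA genes 13 fell and 5 rose, and of the 93 pseudogenes 9 fell and 3 rose. Each of 3 other scalings moved the changes of this comparison upwards, so that the 8 increases could not fall short of the limit under them. Only 6 of the 22 decreases passed it under each of the 3, and 12 passed it under none. With the other scalings 7 to 9 members fell and 16 to 18 rose, beside 1.68% to 1.85% and 3.98% to 5.44% of the genes tested.

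**Figure D1:**
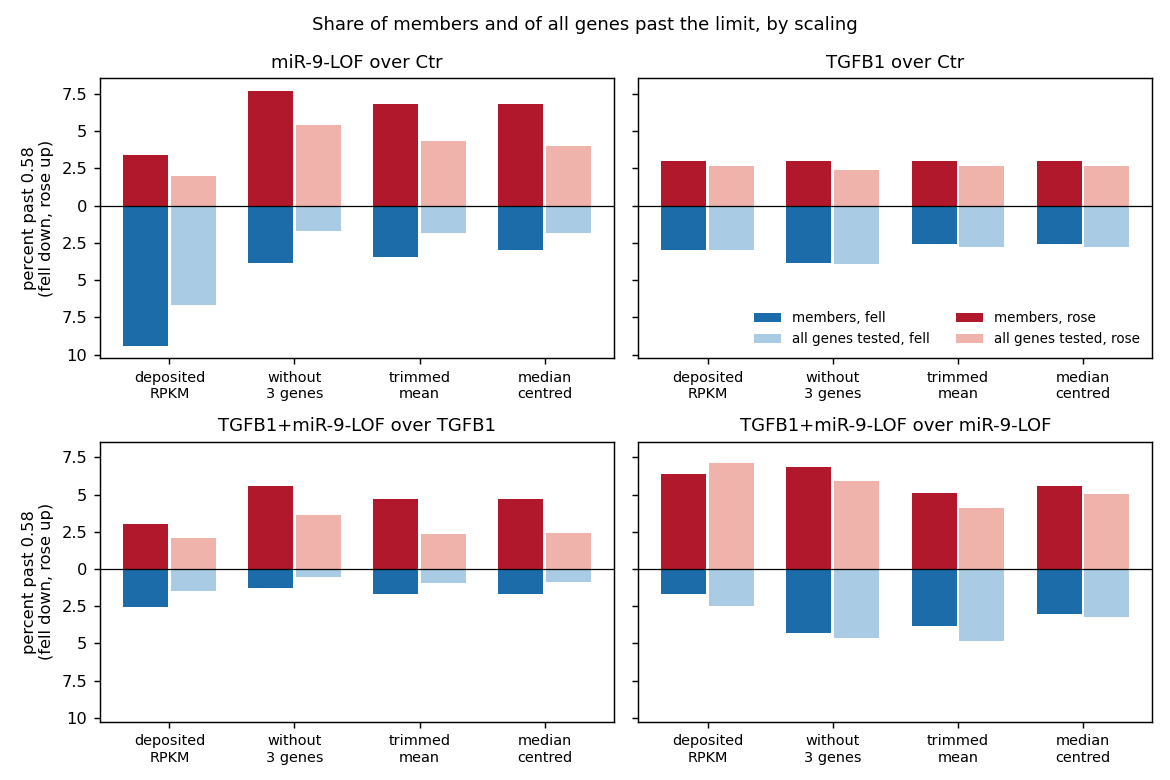
Share of the 234 members (dark bars) and of the 9467 genes tested (pale bars) past the limit of 0.58 in each comparison, in percent, with rises above and falls below the zero line, for the deposited RPKM and 3 other scalings. In miR-9-LOF over Ctr, 9.40% of members and 6.69% of genes fell on the deposited scale, whereas more members rose than fell in that comparison with each of the other scalings.

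Lncpint, a p53-induced RNA that works with Polycomb repressive complexes in mouse cells, had 8.91 RPKM in miR-9-LOF, against 2.59 RPKM in Ctr. That is a ratio of 3.44 (95% interval 2.38 to 5.04) and a log2 change of 1.47, the highest of any member in this comparison. With TGFB1 present it had 6.73 RPKM after miR-9-LOF, against 3.82 RPKM without it, a ratio of 1.76 (1.24 to 2.53). Both libraries with the antagomiR were therefore above both libraries without it. The values rest on 83 reads in TGFB1+miR-9-LOF, 54 in TGFB1, 85 in miR-9-LOF and 46 in Ctr. Among genes that p53 activates, Cdkn1a, the cell cycle inhibitor p21, changed by 0.06 on the log2 scale in miR-9-LOF over Ctr, and Mdm2, the ubiquitin ligase of p53, changed by 0.11. Of 16 p53 targets tested the apoptosis gene Bbc3 alone passed the limit on the deposited scale, at 0.59. With the other scalings 2 or 3 did, where the stress response gene Sesn2 reached 0.63 to 0.71. Phlda3 changed by 0.38 on the deposited scale and reached 0.61 and 0.65 with 2 of the others. The median of the 16 was -0.07 on the deposited scale, and 0 fell past the limit under any scaling.

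B830017H08Rik, an uncharacterised lncRNA gene at chr16:17833119-17835019 (GRCm38), was the only other member with 50 or more reads in each comparison that rose after miR-9-LOF both without and with TGFB1. It had 49.1 RPKM in miR-9-LOF, against 27.0 RPKM in Ctr, a ratio of 1.82 (1.65 to 2.00). Under TGFB1 it had 32.7 RPKM after miR-9-LOF, against 18.9 RPKM without it, a ratio of 1.73 (1.54 to 1.95). Its log2 changes of 0.84 and 0.76 were both larger with every other scaling, because these scalings move both comparisons upwards. TGFB1 moved it the other way, by -0.50 without and -0.57 with the antagomiR. The second value is short of the limit only on the deposited scale and was -0.63 to -0.72 with the other scalings. Dgcr2, the closest coding gene tested, lies 5336 nt away and changed by 0.13 and -0.0046 in the 2 miR-9-LOF comparisons. 4930528H21Rik also passed the limit in both, at 0.70 and 0.85, on only 4 to 20 reads per library.

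Malat1, the abundant RNA of nuclear speckles, had 187.9 RPKM in miR-9-LOF, against 312 RPKM in Ctr. The ratio of 0.603 (0.593 to 0.613) has a narrow counting interval because 19316 and 59649 reads lie behind it. On the deposited scale this is a fall of 0.73 in log2. With the other scalings the change was -0.46, -0.50 or -0.55, which does not reach the limit. Under TGFB1 it had 269.8 RPKM after miR-9-LOF, against 268 RPKM without it, a log2 difference of 0.01. The miR-9-LOF library was therefore the low one of the 4.

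The other decreases after miR-9-LOF had lower levels. U90926, a lncRNA gene on chromosome 5, had 1.45 RPKM in miR-9-LOF (11 reads), against 4.87 RPKM in Ctr (69 reads). Its fall of 1.26 passed the limit under every scaling. The pseudogenes Myef2l, Gm6793 and Gm8624 had changes of -0.87, -0.79 and -0.76, and these also passed under every scaling. Peg3os (-0.79), an antisense RNA within the imprinted gene Peg3, and 4933412E12Rik (-0.73) stayed past the limit under all but one of the other scalings, and Hoxb3os (-0.74), Gm15270 (-0.69) and Gm6548 (-0.62) under none. Peg3 itself had a log2 change of -0.87 in this comparison. Among the increases, 5730408K05Rik changed by 0.80, 2410006H16Rik by 0.63 and the pseudogenes Gm6644 and 5730416F02Rik by 0.61 and 0.60. The remaining rises were those of 4930528H21Rik and Ndufa11b, on under 50 reads.

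With TGFB1 present, miR-9-LOF changed fewer members. In TGFB1+miR-9-LOF over TGFB1, 6 members fell, against 1.48% of the genes tested, and 7 rose, against 2.06% of the genes tested. That is 2.56% and 2.99% of the members, and the median was -0.06 over members and -0.08 over all genes. The other scalings moved changes upwards here as well, so that all 7 increases had to pass the limit under them. They gave 11 to 13 increases, beside 2.36% to 3.61% of the genes tested. A930037H05Rik rose most, with 5.70 RPKM after TGFB1+miR-9-LOF, against 2.20 RPKM after TGFB1, a ratio of 2.59 (2.11 to 3.19). Its exons overlap those of Rnf213, an interferon-responsive ubiquitin ligase on the opposite strand, by 20.3%, and Rnf213 changed by 1.00 in log2, against 1.07 for the lncRNA. Gvin-ps5 and H2-Q5 rose as well. Gvin-ps5, from the family of interferon-inducible giant GTPases, had 2.44 RPKM, against 0.925 RPKM after TGFB1, and H2-Q5, of the class I histocompatibility genes, 2.50 RPKM, against 1.28 RPKM after TGFB1. Of the same families, Gvin-ps6 changed by 0.57 and H2-K2 by 0.49, short of the limit on the deposited scale. 2900060B14Rik, within Clasp1, had 6.09 RPKM after TGFB1+miR-9-LOF, against 3.31 RPKM after TGFB1.

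Decreases in this comparison included Gm15270 (-0.84), D030025P21Rik (-0.73), Igf2os (-0.69), Gm11149 (-0.60) and the pseudogene Serpina3h (-0.59). Those of Gm11149 and Serpina3h passed the limit under none of the other scalings, and that of D030025P21Rik under all but one. Igf2os, the antisense RNA of the imprinted growth factor gene Igf2, had 0.692 RPKM after TGFB1+miR-9-LOF, against 1.72 RPKM after TGFB1. Its ratio was 0.401 (0.296 to 0.537) on 63 and 180 reads, and the fall passed the limit under every scaling, as did that of Gm15270. Without TGFB1 it had 0.710 RPKM in miR-9-LOF, against 1.39 RPKM in Ctr, so both antagomiR libraries were low. That log2 change of -0.49 stays short of the limit because 1 is added to low RPKM values. The levels of Igf2os without this antagomiR carried its mean past the minimum for members. Its low place in the antagomiR libraries is therefore partly set by the selection.

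The 2 miR-9-LOF comparisons share no library. Gm15270 and D030025P21Rik fell in both, as 0.856% of the genes tested did, and 3 members rose in both, as 1.21% of the genes tested did. These counts, 0.855% and 1.28% of the members, lie near those of all genes. With each of the other scalings neither of the 2 falls passed the limit in both comparisons. The rises of B830017H08Rik and Lncpint could not be lost, because these scalings move both comparisons upwards. D030025P21Rik, an uncharacterised lncRNA gene, had 11.7 RPKM after TGFB1+miR-9-LOF, against 20.1 RPKM after TGFB1, and 9.06 RPKM after miR-9-LOF, against 14.2 RPKM in Ctr.

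**Figure D2:**
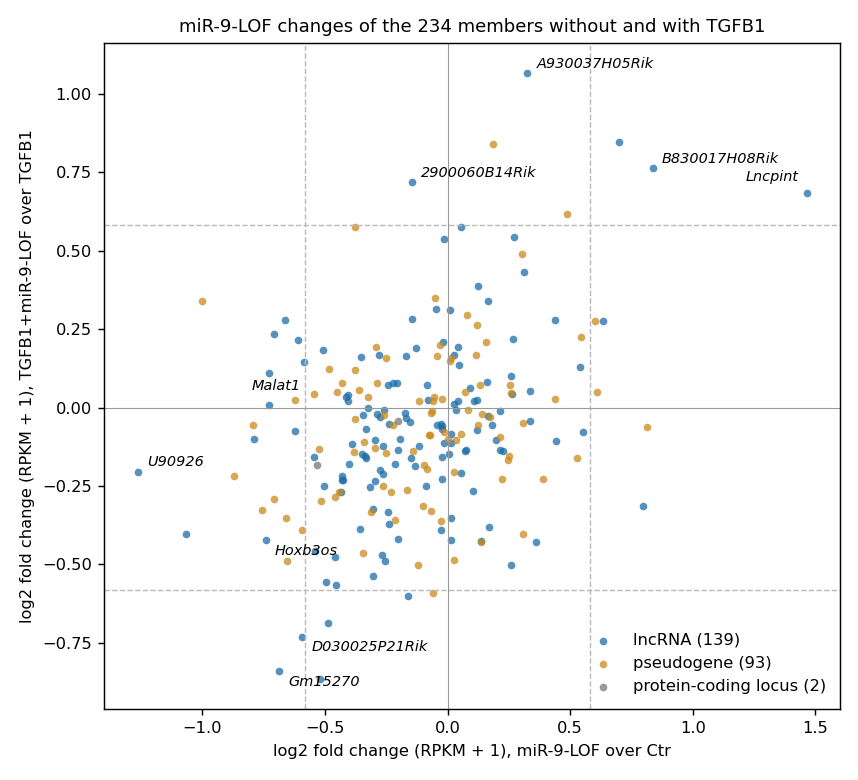
Each point is 1 of the 234 members, with its log2 change of RPKM + 1 in miR-9-LOF over Ctr on the horizontal axis and in TGFB1+miR-9-LOF over TGFB1 on the vertical axis, and dashed lines at the limit of 0.58 either way. Lncpint (1.47 and 0.68) and B830017H08Rik (0.84 and 0.76) stand in the upper right, Gm15270 (-0.69 and -0.84) in the lower left, and Malat1 (-0.73 and 0.01) on the left near the zero line, where the first value of Gm15270 and of Malat1 passed the limit on the deposited scale but under none of the other scalings.

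For 20 members the miR-9-LOF change was higher by 0.58 or more with TGFB1 than without it, against 4.52% of the genes tested, and for 9 it was lower by as much, against 1.27% of the genes tested. These are 8.55% and 3.85% of the members on the deposited scale, and they were not recounted with the other scalings. Each difference holds the counting error of 4 libraries. Malat1 belonged to the first kind, with a difference of 0.74, and so did A930037H05Rik with 0.74, 4933412E12Rik with 0.84 and 2900060B14Rik with 0.86. Lncpint belonged to the second, with -0.78, although it rose in both. 5730408K05Rik had the lowest difference, -1.11. It had 5.49 RPKM after TGFB1+miR-9-LOF, against 7.06 RPKM after TGFB1, and 8.51 RPKM after miR-9-LOF, against 4.48 RPKM in Ctr. No member passed the limit in opposite directions in the 2 comparisons. The differences of single libraries were not tested.

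TGFB1 changed as many members upwards as downwards in cells with the control antagomiR. In TGFB1 over Ctr, 7 members fell, against 2.95% of the genes tested, and 7 rose, against 2.64% of the genes tested. Each count is 2.99% of the members. The median was 0.01 over members and -0.01 over all genes, and all but one of these 14 calls passed the limit under each other scaling. The exception was 1110038B12Rik (-0.58). In TGFB1+miR-9-LOF over miR-9-LOF, 4 members fell, against 2.45% of the genes tested, and 15 rose, against 7.13% of the genes tested, which is 1.71% and 6.41% of the members. There the other scalings gave 7 to 10 falls and 12 to 16 rises, beside 3.23% to 4.85% and 4.09% to 5.92% of the genes tested.

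Gm15270, a lncRNA gene at chr10:24595249-24597108 on the minus strand (GRCm38), had the highest change with TGFB1 on the log2(RPKM + 1) scale. It had 95.3 RPKM after TGFB1, against 29.4 RPKM in Ctr, a ratio of 3.24 (2.97 to 3.55). With the antagomiR it had 52.8 RPKM after TGFB1, against 17.9 RPKM without TGFB1, a ratio of 2.95 (2.54 to 3.44). Both TGFB1 libraries were above both others, and within each pair the antagomiR library was the lower. In GENCODE, 74.6% of its exon sequence lies over exons of Ccn2 on the opposite strand. Ccn2 encodes connective tissue growth factor, a matricellular protein and classical TGFB1 target. Ccn2 had 533.8 RPKM after TGFB1, against 180.4 RPKM in Ctr, and 292.6 RPKM after TGFB1+miR-9-LOF, against 98.1 RPKM after miR-9-LOF. Its log2 changes with TGFB1 were 1.56 and 1.57, beside 1.66 and 1.51 of Gm15270, and with miR-9-LOF -0.87 and -0.87, beside -0.69 and -0.84. Reads were counted on both strands, so reads of Ccn2 and Gm15270 cannot be told apart in the shared exons.

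Gm11149 rose in both TGFB1 comparisons too. It had 4.16 RPKM after TGFB1 (115 reads), against 0.776 RPKM in Ctr (27 reads), a ratio of 5.35 (3.50 to 8.47). With the antagomiR it had 2.40 RPKM after TGFB1, against 0.589 RPKM without TGFB1, a ratio of 4.08 (2.12 to 8.62). Its levels after TGFB1 carried its mean past the minimum for members, so that its lower place without TGFB1 is partly set by the selection. It lies at chr9:49518288-49568025 opposite Ncam1, a neural cell adhesion molecule, whose exons cover 20.9% of it. Ncam1 changed by 1.98 and 1.97 in these comparisons, beside 1.54 and 1.10 of Gm11149. The third member that rose in both was 3300005D01Rik, with 3.68 RPKM after TGFB1, against 1.37 RPKM in Ctr. It had 2.38 RPKM after TGFB1+miR-9-LOF, against 0.968 RPKM after miR-9-LOF, on only 46 reads over these 2 libraries. No coding gene overlaps it, and Snx9, the closest one tested at 38082 nt, changed by 0.16 and 0.36.

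Further rises with TGFB1 over Ctr were those of 0610040F04Rik, Serpina3h and Gm10532. 0610040F04Rik, which overlaps Bhlhe40 on the opposite strand, had 3.84 RPKM after TGFB1, against 1.58 RPKM in Ctr, a ratio of 2.43 (1.83 to 3.26). Bhlhe40, a transcriptional repressor of the circadian clock, changed by 1.05, beside 0.91 of this lncRNA, although coding exons cover only 6.80% of it. Serpina3h, a pseudogene of the serine protease inhibitor cluster, had 22.3 RPKM after TGFB1, against 12.0 RPKM in Ctr, while the neighbouring Serpina3g changed by -0.81. Gm10532, opposite Ctif, changed by 0.71, beside 0.54 of Ctif. With the antagomiR these 3 members changed by 0.47, 0.31 and 0.48, short of the limit. Ptgs2os2, also called lincRNA-Cox2 and known from mouse macrophages, had 2.14 RPKM after TGFB1+miR-9-LOF, against 0.857 RPKM after miR-9-LOF, a ratio of 2.50 (1.53 to 4.23). Its change of 0.76 stood beside 1.09 of Ptgs2, the inducible cyclooxygenase, 50809 nt away.

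U90926 had the lowest log2 change with TGFB1. It had 0.621 RPKM after TGFB1 (7 reads), against 4.87 RPKM in Ctr (69 reads), a ratio of 0.128 (0.0494 to 0.277). In antagomiR-treated cells it had 0.407 RPKM after TGFB1 (4 reads), against 1.45 RPKM without TGFB1 (11 reads). Ctr was thus the only library with more than 11 of its reads, and U90926 was lower in every other library. Its level in Ctr also carried its mean past the minimum for members, so that its lower place elsewhere is partly set by the selection. Uso1, the closest coding gene tested at 7095 nt, changed by 0.37 in TGFB1 over Ctr. H2af-ps2, a pseudogene on chromosome 13, had 19.6 RPKM after TGFB1, against 32.1 RPKM in Ctr, and 22.2 RPKM after TGFB1+miR-9-LOF, against 34.8 RPKM after miR-9-LOF. Its ratios of 0.612 (0.572 to 0.654) and 0.636 (0.590 to 0.686) rest on 1257 to 2622 reads per library, and the libraries with TGFB1 did not overlap those without. It and U90926 were the 2 members that fell in both TGFB1 comparisons, as 1.15% of the genes tested did. The 3 members that rose in both compare with 1.79% of the genes tested. Fam219aos (-0.77) and E130310I04Rik (-0.65) also fell in TGFB1 over Ctr, and E130310I04Rik had 16 reads after TGFB1 and 40 in Ctr.

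**Figure D3:**
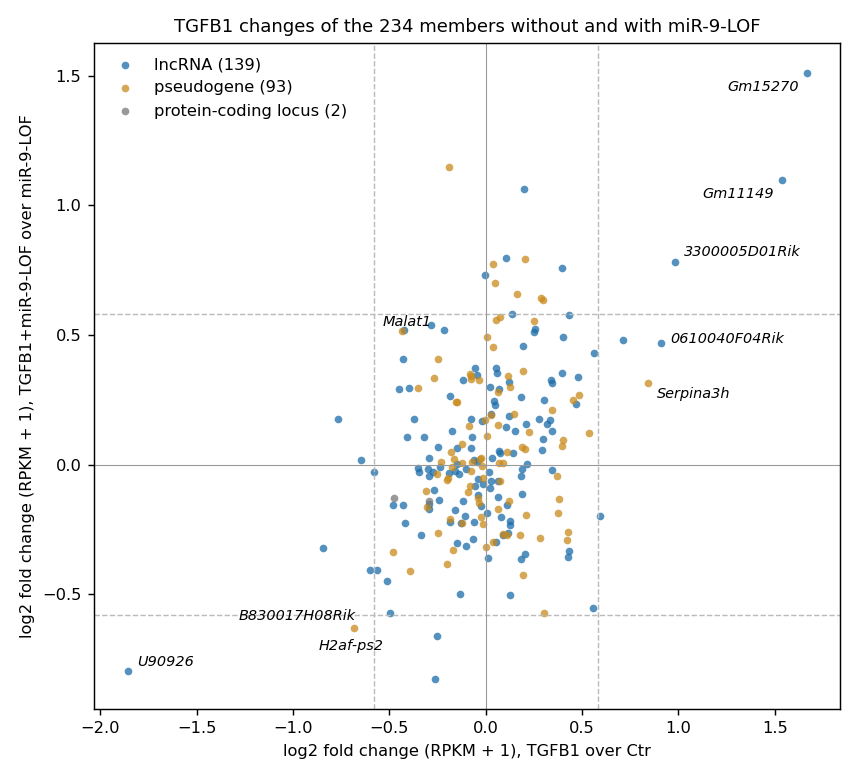
Each point is 1 of the 234 members, with its log2 change of RPKM + 1 in TGFB1 over Ctr on the horizontal axis and in TGFB1+miR-9-LOF over miR-9-LOF on the vertical axis, and dashed lines at the limit of 0.58 either way. Gm15270 (1.66 and 1.51) and Gm11149 (1.54 and 1.10) lie in the upper right and U90926 (-1.86 and -0.80) in the lower left.

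Many of the lncRNA genes lie over a coding gene. GENCODE models placed 132 of the 139 lncRNA genes. In 85 of them the exons overlapped an exon of a protein-coding gene, in 76 on the opposite strand and in 9 on the same strand. Another 13 started within 2000 nt of a coding gene that runs the other way, 6 lay within a coding gene without exon overlap, and 28 had none of these neighbours. The median overlap was 23.4% of the lncRNA exons, and 11 were covered by 50% or more. Of the 85, 72 had a partner among the genes tested, and in 66 the partner had the higher mean RPKM. Of the 13 falls of lncRNA genes in miR-9-LOF over Ctr 7 were in this class, and of the 5 rises 0 were, whereas in TGFB1 over Ctr it held 3 of 6 falls and 5 of 6 rises.

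Most genes changed little, with 94.4% of the genes tested within 0.58 of 0 in TGFB1 over Ctr and 91.3% in miR-9-LOF over Ctr, so that closeness to a partner says little by itself. In TGFB1 over Ctr the log2 change of the lncRNA was within 0.58 of that of its partner for 70 of 72 pairs, with a median distance of 0.14. In miR-9-LOF over Ctr it was so for 70 of 72 pairs as well, with a median distance of 0.15. Of the 7 lncRNAs with a tested partner that passed the limit in miR-9-LOF over Ctr, 5 had the partner past it in the same direction, and of the 7 in TGFB1 over Ctr, 4 did. Conversely, 7 partners passed the limit in miR-9-LOF over Ctr and 6 in TGFB1 over Ctr, and the lncRNA changed with the same sign in each of these pairs. E130310I04Rik changed by -1.07 in miR-9-LOF, beside -1.14 of Mylk, the myosin light chain kinase. D030025P21Rik changed by -0.59, beside -0.69 of Ltbp2, a latent TGFB binding protein of the matrix. Fam219aos went against its partner, with -0.71 in miR-9-LOF, beside 0.23 of Fam219a, although 66.2% of its exons are shared, and with -0.77 in TGFB1 over Ctr, beside 0.25 of Fam219a. The miR-9-LOF falls of D030025P21Rik and Fam219aos passed the limit under none of the other scalings. Because the counting used both strands, the part of shared reads in these values was not tested.

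**Figure D4:**
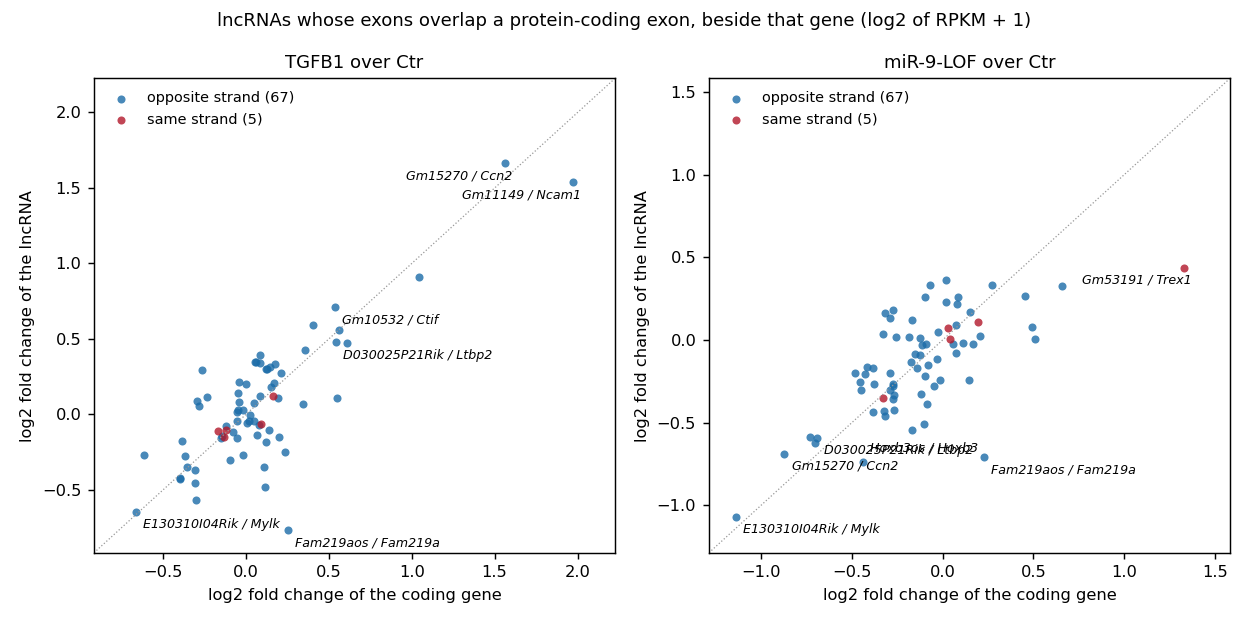
Each point is a lncRNA gene whose exons overlap exons of a protein-coding gene (72 pairs with a tested partner), with the log2 change of RPKM + 1 of the coding gene on the horizontal axis and of the lncRNA on the vertical axis, for TGFB1 over Ctr (left) and miR-9-LOF over Ctr (right). Most pairs changed little and lie near the dotted line of equal change, and reads of shared exons are not separated. Gm15270 and Ccn2 (1.66 and 1.56) and Gm11149 and Ncam1 (1.54 and 1.98) lie at the top on the left. Fam219aos lies below the line in both panels.

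By transcript length, the 47 shortest lncRNA genes, of 251 to 989 nt, held 9 of the 13 falls and 4 of the 5 rises of miR-9-LOF over Ctr, the 46 of middle length 2 and 1, and the 46 longest 2 and 0. In TGFB1 over Ctr the shortest held all 6 falls and 3 of the 6 rises. In TGFB1+miR-9-LOF over TGFB1 the shortest, middle and longest held 2, 1 and 2 falls and 3, 1 and 1 rises. In TGFB1+miR-9-LOF over miR-9-LOF they held 2, 1 and 0 falls and 4, 3 and 1 rises. Short transcripts collect fewer reads at the same RPKM, and the part of counting error in this was not tested. The counts are on the deposited scale, and other genes of like length were not counted beside them. The miR-9-5p seed match gave a smaller contrast. The median log2 change of miR-9-LOF over Ctr was -0.18 for the 22 lncRNA genes with a match and -0.15 for the 93 without one. Of the 22, 1 rose (Lncpint) and 1 fell (Malat1), and of the 93, 2 rose and 8 fell. The fall of Malat1 passed the limit under none of the other scalings.

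Among the 15 members of the role lists, only Lncpint, Malat1 and Hoxb3os passed the limit in miR-9-LOF over Ctr on the deposited scale. Of these only Lncpint passed it under the other scalings, which could only enlarge its rise. None of the 15 passed it in either TGFB1 comparison on the deposited scale. Of nuclear body RNAs, Neat1, the scaffold of paraspeckles, had 6.69 RPKM after TGFB1+miR-9-LOF, against 5.88 RPKM after TGFB1, and 6.14 RPKM after miR-9-LOF, against 8.12 RPKM in Ctr. Its highest level was thus in Ctr. The paraspeckle protein genes Pspc1 and Matr3 changed by -0.58 and -0.71 in miR-9-LOF over Ctr on the deposited scale, the only 2 of 16 tested that passed the limit there, and 0 did with the other scalings. Of 23 genes of the RNA exosome and nuclear decay 0 passed it in that comparison on the deposited scale, while Exosc5 rose by 0.74 to 0.83 with the other scalings. Exosc3 (-0.68) alone passed it in TGFB1 over Ctr under every scaling. Tug1, a nuclear and cytoplasmic regulatory RNA, changed by 0.40 in TGFB1 over Ctr and by 0.49 in TGFB1+miR-9-LOF over miR-9-LOF, with ratios of 1.46 (1.25 to 1.72) and 1.63 (1.32 to 2.04).

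Xist, which coats and silences the inactive X chromosome, had 9.87 RPKM after TGFB1+miR-9-LOF, against 11.3 RPKM after TGFB1, and 7.89 RPKM after miR-9-LOF, against 10.8 RPKM in Ctr. Tsix, its antisense repressor, had 3.52 RPKM after TGFB1+miR-9-LOF, against 4.38 RPKM after TGFB1, and 3.00 RPKM after miR-9-LOF, against 4.67 RPKM in Ctr. Both were lower in the antagomiR library of each pair by less than the limit on the deposited scale, and with library totals without Rn45s, Mir6236 and Lars2 Xist changed by 0.013 in TGFB1+miR-9-LOF over TGFB1, against -0.18 on the deposited scale. Of the Tsix exons 46.0% lie over Xist exons, where the reads cannot be told apart. At imprinted loci, Peg13 changed by -0.43 without and by -0.23 with TGFB1 after miR-9-LOF, and Igf2os as given above.

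Of the cytoplasmic RNAs, Norad, which sequesters Pumilio proteins, changed by -0.33 in miR-9-LOF over Ctr and by 0.46 in TGFB1+miR-9-LOF over miR-9-LOF. Oip5os1, known as Cyrano and as the RNA that directs decay of miR-7, changed by -0.22 and by 0.35. Dancr and Zfas1, which host small nucleolar RNAs, stayed within -0.32 and 0.28 in all 4 comparisons. In the HOX and mesoderm list, Hoxb3os had 3.09 RPKM after miR-9-LOF, against 5.84 RPKM in Ctr, and 3.01 RPKM after TGFB1+miR-9-LOF, against 4.38 RPKM after TGFB1. It lies opposite Hoxb3, whose exons cover 97.2% of it and which changed by -0.44 in miR-9-LOF over Ctr. Hotairm1, an RNA linked to myeloid differentiation in human cells, had 1.26 RPKM after TGFB1+miR-9-LOF, against 3.11 RPKM after TGFB1, on 6 and 17 reads. Carmn, the host gene region of the smooth muscle microRNAs miR-143 and miR-145, had 0.856 RPKM after TGFB1+miR-9-LOF, against 1.73 RPKM after TGFB1, and 0.955 RPKM after miR-9-LOF, against 1.75 RPKM in Ctr. Its changes of -0.56 and -0.49 did not reach the limit, although both antagomiR libraries had the lower RPKM. Carmn passed the minimum for members through its levels in the other libraries, so that this order is partly set by the selection.

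**Figure D5:**
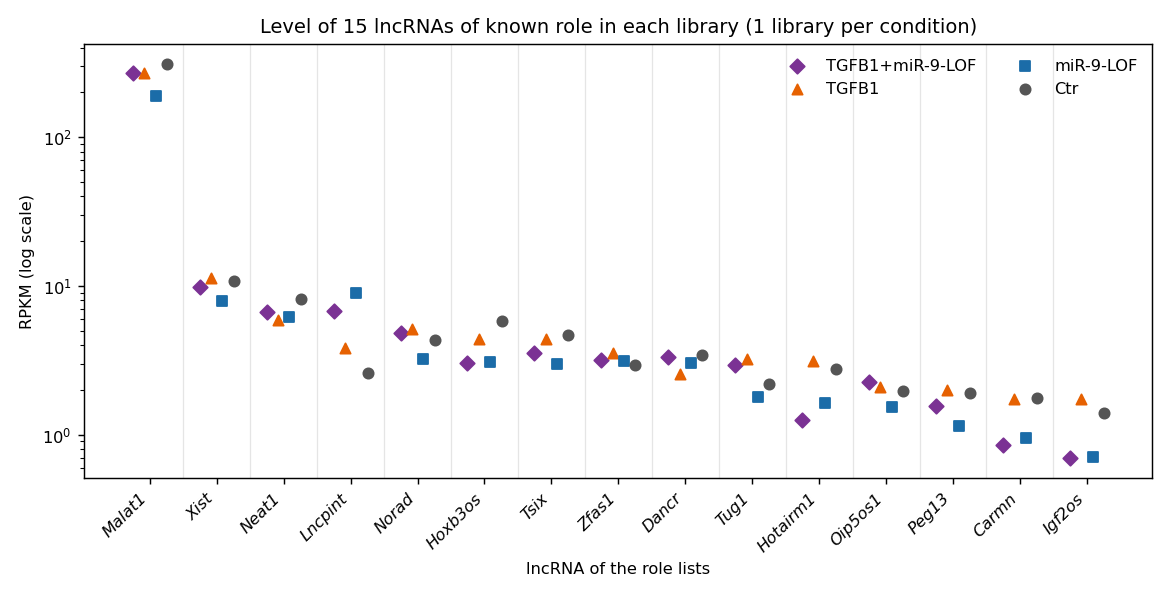
RPKM (log scale) of the 15 lncRNAs of the role lists that are members, in TGFB1+miR-9-LOF (diamonds), TGFB1 (triangles), miR-9-LOF (squares) and Ctr (circles), with 1 library each. Malat1 at 187.9 to 312 RPKM is far above the rest, and Lncpint is the one whose 2 antagomiR libraries (6.73 and 8.91 RPKM) both lie above the others.

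A total of 23 members carry the name of a coding gene that was also tested, and their values lay at varied distances from it. Ubb-ps, a copy of the ubiquitin gene Ubb, changed by 0.07 in miR-9-LOF over Ctr, beside 0.06 of Ubb, and by -0.19 in TGFB1 over Ctr, beside -0.19 of Ubb. Atp6v0c-ps2 changed by -0.17, beside -0.17 of Atp6v0c, a subunit of the vacuolar proton pump, and by -0.13, beside -0.13. Rplp2-ps1 differed more, with -0.04 in miR-9-LOF over Ctr, beside 0.23 of the ribosomal protein gene Rplp2. Rpl14-ps1 had -0.18 in TGFB1 over Ctr, beside 0.06 of Rpl14, and -0.06 in TGFB1+miR-9-LOF over TGFB1, beside -0.36. Rplp2-ps1 overlaps the span of Wdr89, which changed by -0.04 in miR-9-LOF over Ctr as well. Gpr137b-ps had 0.16, beside 0.75 of Gpr137b. Reads of such copies may come from the parent genes, and how multiply aligned reads were treated is not given in the sources used here. Their changes are therefore uncertain as changes of the copies.

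Promoters were searched for a pattern that can fold into a G-quadruplex, a stacked structure of guanines that the study places beside miR-9. It was 4 runs of 3 or more G, 1 to 7 bases apart, on either strand, from 250 bases before to 50 after the start. RefSeq promoters were at hand for 106 members, of which 21 held it in any of their promoters (19.8%). Of all 32851 promoters 18.6% held it, a share that counts single promoters and not genes, so that the 2 shares differ in unit. Among 104 lncRNA genes, 2 of the 19 with the pattern fell in miR-9-LOF over Ctr and none rose, whereas 10 of the 85 without it fell and 4 rose. The medians were -0.19 with and -0.03 without the pattern, and in TGFB1+miR-9-LOF over TGFB1 -0.10 and -0.05. The 2 promoters with the pattern whose lncRNA fell are shown (RefSeq, GRCm38), with the bases of the pattern in capitals. The first, of D030025P21Rik, lies at chr12:84875552-84875851 and the second, of 4933412E12Rik, at chr10:116950312-116950611, both on the plus strand.
D030025P21Rik: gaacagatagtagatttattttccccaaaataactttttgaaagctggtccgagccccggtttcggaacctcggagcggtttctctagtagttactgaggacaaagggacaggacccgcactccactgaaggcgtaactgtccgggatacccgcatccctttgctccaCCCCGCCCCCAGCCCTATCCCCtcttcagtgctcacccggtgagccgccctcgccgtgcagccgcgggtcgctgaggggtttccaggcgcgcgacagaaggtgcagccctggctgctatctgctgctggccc
4933412E12Rik: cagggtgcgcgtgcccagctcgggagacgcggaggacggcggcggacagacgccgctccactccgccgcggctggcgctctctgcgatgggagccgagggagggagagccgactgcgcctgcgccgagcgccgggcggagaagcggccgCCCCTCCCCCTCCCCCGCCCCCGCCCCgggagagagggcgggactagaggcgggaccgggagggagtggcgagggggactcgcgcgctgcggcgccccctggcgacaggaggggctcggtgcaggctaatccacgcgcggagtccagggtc
In both the pattern stands as runs of C, so that the runs of G are on the other strand. Both falls lost their place past the limit under one or more other scalings.

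The promoter of Lncpint, which rose most, is given for comparison (chr6:31218425-31218724, minus strand).
Lncpint: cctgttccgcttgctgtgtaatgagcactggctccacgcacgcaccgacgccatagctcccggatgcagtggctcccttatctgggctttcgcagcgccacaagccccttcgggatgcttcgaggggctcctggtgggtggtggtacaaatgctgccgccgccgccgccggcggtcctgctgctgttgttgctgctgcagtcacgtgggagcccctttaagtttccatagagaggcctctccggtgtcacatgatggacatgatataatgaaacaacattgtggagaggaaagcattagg
These 300 bases have a GC content of 58.7%, against 60.0% in that of D030025P21Rik and 78.0% in that of 4933412E12Rik, and the pattern is not among their letters.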

How the data were processed

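RNA was sequenced as single-end reads of 75 bp on an Illumina NextSeq500. The authors trimmed the reads with Trimmomatic (0.36 in the submitters' processing notes), used Bowtie2 for alignment to mm10, and let HOMER count exon reads without regard to strand. Versions of these programs other than Trimmomatic were not found in the labels or methods. The deposited counts are whole reads per RefSeq transcript and are not normalized. The deposited RPKM were computed by the authors with edgeR and hold an added 1, which was taken off here. The deposited transcript length was used to select members. Deposited columns of summed values and of the authors' own log2 fold changes were not used. Every per-sample column was matched to a sample by its name.

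Samples were grouped by their titles, with 1 library in each of 4 conditions, so that the spread between cultures is not known, and nothing was tested. Members and gene lists were chosen with earlier results of these data known. The genes tested were the 9467 with a mean RPKM of 1 or more, each by its transcript with the highest mean. A change was a difference of log2(RPKM + 1) of 0.58 or more either way, the limit used in the study, and this scale understates changes of low transcripts. Ratios of RPKM carry exact 95% binomial intervals for counting error, and reads are not independent molecules. An additive fit over the 4 libraries was not run. The other scalings were library totals without Rn45s, Mir6236 and Lars2, the trimmed mean of log ratios, and centring on the median of all genes tested.

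Named by rule were the 10 members with the highest mean RPKM, up to 8 with the largest change each way past the limit in a comparison with 50 or more reads, those past the limit the same way in both comparisons of a treatment with 50 or more reads in each, the role lists, and the 3 on each side of the minimum. Members, partners and neighbours outside that rule were named after their values were seen.

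RefSeq (GRCm38.p6) matched 232 of 234 members by accession and the others by symbol or synonym, and GENCODE M21 models on the same assembly placed 217. The calculations used Python 3.11.15, numpy 2.4.6, pandas 2.3.3 and scipy 1.17.1 and were tested on simulated data.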

Additional observations from a re-analysis of the deposited data

How the results depend on the processing

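With library totals without Rn45s, Mir6236 and Lars2, 9 members fell and 18 rose in miR-9-LOF over Ctr (median 0.11), 3 fell and 13 rose in TGFB1+miR-9-LOF over TGFB1 (median 0.090), 10 fell in TGFB1+miR-9-LOF over miR-9-LOF, while 0 fell in both miR-9-LOF comparisons. With the trimmed mean of log ratios, 8 fell and 16 rose in miR-9-LOF over Ctr (median 0.068), 11 rose in TGFB1+miR-9-LOF over TGFB1, 9 fell in TGFB1+miR-9-LOF over miR-9-LOF (median -0.091), and in both miR-9-LOF comparisons 0 fell. Centred on the median of all genes tested, 7 fell and 16 rose in miR-9-LOF over Ctr (median 0.074), 11 rose in TGFB1+miR-9-LOF over TGFB1, 7 fell in TGFB1+miR-9-LOF over miR-9-LOF, while 0 fell in both miR-9-LOF comparisons.

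With a pseudocount of 0.1, 44 fell and 16 rose in miR-9-LOF over Ctr, 15 and 17 in TGFB1 over Ctr, 22 and 13 in TGFB1+miR-9-LOF over TGFB1, and 15 and 35 in TGFB1+miR-9-LOF over miR-9-LOF, while 8 fell in both miR-9-LOF comparisons and 5 fell and 8 rose in both TGFB1 comparisons. With a limit of 1 these counts were 3 and 1, 1 and 2, 0 and 1, and 0 and 4 in the same order, with 0 falls and 0 rises in both miR-9-LOF comparisons and 0 falls in both TGFB1 comparisons. With a mean RPKM of 5 or more they were 7 and 5, 2 and 2, 3 and 2, and 1 and 1, with 1 fall and 1 rise in both TGFB1 comparisons. With 50 or more reads, 1 fell in both TGFB1 comparisons. The share over all genes tested was not counted for the settings of this paragraph. These counts therefore show nothing particular to the members. With the longest transcript in place of the highest, 6330415G19Rik changed by 0.26 in TGFB1+miR-9-LOF over miR-9-LOF, against -0.66 with the highest. Of 128 counts and medians over all settings, 74 stayed within the margin set for them and 54 moved.

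No paired analysis was possible because the conditions share fewer than 2 replicate numbers and no result comes from a test. An additive fit of both treatments is open to this design and was left undone, and no library was left out. Depth limits the low members: the median member had 52.5 reads in miR-9-LOF.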
